A study of Zea mays with 16 samples.

Results

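The transcripts described here are the 200 array probes whose signal rose most between maize anthers of 1.0 mm and anthers of 2.0 mm. They were chosen from measured values: among the 28295 of 42034 maize probes that were well above background in all 16 samples, each probe's level was its log2 signal minus the median log2 signal of the sample, and the probes were ranked by the mean level at 2.0 mm minus the mean level at 1.0 mm. This difference is called the rise. Because the stage contrast chose the members, the stage values below are a description and no test was run on them.

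A maize anther first builds its wall layers and its archesporial cells by mitosis, and the cells of its centre then enter meiosis. Around the meiocytes lies the tapetum, a secretory layer that feeds them and later supplies material for the pollen wall. Anthers of 1.0 mm are still mitotic and before meiosis, and anthers of 2.0 mm are in meiotic prophase. A whole anther holds all of these cell types, so a greater share of cells of a type and more RNA per cell cannot be told apart in these samples.

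The study compared sibling plants from high-copy lines of the MuDR/Mu transposon system, with the bz2-mu2 allele as the kernel colour reporter. In the Mu killer line this system met Mu killer, a dominant locus that can silence MuDR. The locus holds a partial inverted copy of the MuDR transposase gene mudrA. In high-copy lines the paper found the silencing incomplete: some bronze-kernel plants with Mu killer kept mudrA transcripts. The Mu active siblings lacked Mu killer and had spotted kernels, the sign of an active transposon, while the Mu killer plants came from bronze kernels; both were genotyped for Mu killer by PCR. The groups were Mu killer 2.0 mm, Mu active 2.0 mm, Mu killer 1.0 mm and Mu active 1.0 mm, with 4 samples each, and each of the 8 arrays carried 1 sample of each line at 1 stage, labelled with Cy3 and Cy5. Each sample pooled anthers of the upper florets. The labels give both colours of an array the same line name. The name on the Cy3 sample was kept, and the Cy5 sample was given the other line, with Mu killer in Cy3 on the arrays of replicates 1 and 2 and in Cy5 on those of replicates 3 and 4. If the names belong to the other colour, the lines change places throughout. The 2.0 mm arrays lay on 1 slide and the 1.0 mm arrays on another, so stage and slide cannot be told apart.

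Between 32697 and 37898 spots of a sample were well above background, and no maize spot was saturated. On the same median scale, 10 spike-in transcripts, added in fixed amounts before labelling, differed between the stages by 0.97 to 1.10 log2 units, higher at 2.0 mm, while none had all 8 samples at 2.0 mm above all 8 at 1.0 mm. Every one of the 200 members rose more than the highest of these, but the rule took the largest rises, so nothing is read from this. With the spike-ins in place of the median as the scale, a choice made after the data were seen, the median difference of all 28295 probes was -1.02 and the lowest rise of a member was 1.30. The part of this shift in the rises was not tested. The 4 probes for MuDR transcripts did not run 1 way between the lines as assigned. The probe labelled MUDR-TIRA was lower in Mu killer, at 3.29 ± 0.37 in Mu killer 2.0 mm and 4.31 ± 0.73 in Mu active 2.0 mm, and at 1.54 ± 0.47 in Mu killer 1.0 mm and 2.13 ± 0.73 in Mu active 1.0 mm (SD, n = 4 each). Its log2 ratio of the lines was -0.96 at 2.0 mm (SE 0.33, limma adjusted p = 0.27, lower on 4 of 4 arrays) and -0.58 at 1.0 mm (adjusted p = 0.71, lower on 3 of 4). MUDRB was lower in Mu killer on 4 of 4 arrays at 1.0 mm, with a mean ratio of -0.50 (SE 0.16, limma adjusted p = 0.71), but had a ratio of 0.11 at 2.0 mm. MUDRA-21 had ratios of 0.30 at 2.0 mm and -0.27 at 1.0 mm, and MUDRA, the probe for the gene that Mu killer copies, 0.20 and 0.01. None passed the adjusted threshold. The paper reports that Mu killer itself carries parts of mudrA and TIRA, the end of MuDR beside mudrA, and is transcribed. It also states that every maize line holds hMuDR, defective relatives of MuDR that are transcribed too. Probes for these sequences need not read MuDR alone. With ratios that also ran both ways, these probes do not settle the line labels.

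The members are named by the identifiers of the array's design, and all but 1 pair of probes have an identifier of their own. Of the 200 probes, 166 (83.0%) have a TC number, a tentative consensus built from overlapping expressed sequence tags, against 73.9% of the 28295 probes. No member matched the reference gene table and the array's description column names none of them, so the members are given by identifier and no function is assigned. The array does name probes for the meiotic gene AM1 and for subunits of cohesin, and none of these is a member. AM1, the switch that commits maize cells to meiosis, differed by -0.89 and -0.47 (2.0 mm minus 1.0 mm) by its 2 probes that were ranked. ZmSMC1, a cohesin subunit that holds sister chromatids together, differed by -0.98 and -1.09 by its 2 probes. The cohesin subunits ZmSMC3, by 4 probes, and ZmRAD21, by 5, differed by -0.67 to 0.11 and by -0.32 to 0.46.

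The rise of the members ran from 2.34 through a median of 2.90 to 9.45 log2 units, that is 5.07-fold, 7.45-fold and 697-fold. Over all 28295 probes the median difference was 0.02 with an SD of 0.73, and the largest fall was -4.94. The distribution of the members was steep at its top: 5 rose by more than 8 log2 units, 13 by more than 5, 27 by more than 4 and 88 by more than 3. Only 2 members lay between 6 and 8, leaving the 5 leading transcripts apart from the rest on this scale. In the authors' own normalized intensities the distance was smaller, with AI665554 of the 5 at 6.10 and TC305255 of the rest at 5.67.

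**Figure D1:**
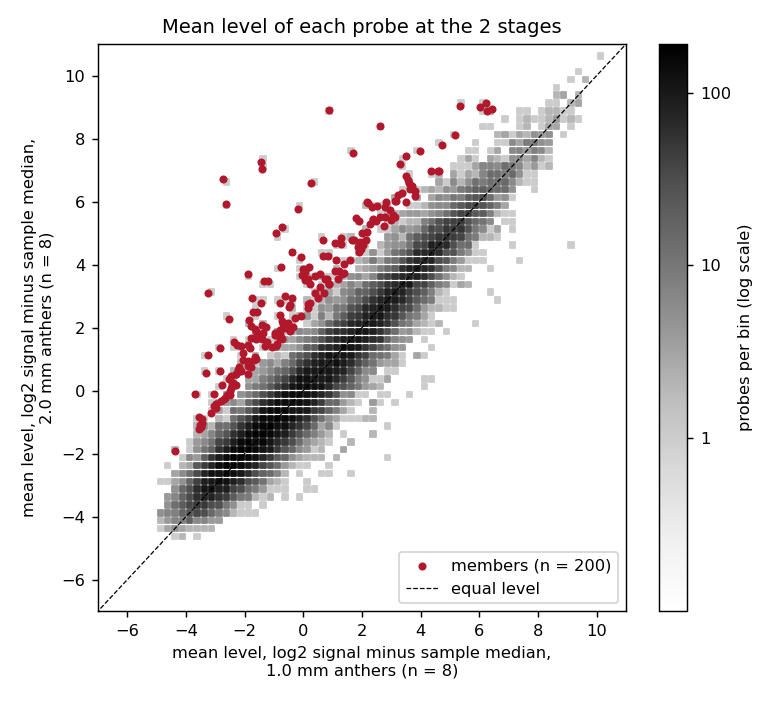
Mean level of each probe in the 8 samples at 2.0 mm (vertical axis) and the 8 samples at 1.0 mm (horizontal axis), in log2 signal minus the sample median; grey squares count all 28295 probes and red points are the 200 members. The members form the upper edge of the cloud, with 5 points more than 8 log2 units above the line of equal level.

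The leading transcript, TC295184, read 4.42 at the lowest, 6.81 at the median and 8.46 at the highest in the 8 samples at 2.0 mm, against -3.31, -2.68 and -2.28 in the 8 samples at 1.0 mm. Its rise was 9.45. The samples of the stages were 6.70 log2 units apart at their nearest, so no sample at 2.0 mm came near the 1.0 mm range. TC283860 followed with 5.64, 7.44 and 8.52 at 2.0 mm (lowest, median, highest), against -2.02, -1.32 and -1.10 at 1.0 mm, and a rise of 8.69 (412-fold). Its gap between the stages, 6.74, was the wider of the pair although its rise was smaller, with an SD at 2.0 mm of 1.24 against 1.54 for TC295184.

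AI665554 rose by 8.56, with 3.84, 6.17 and 7.85 at 2.0 mm, against -3.30, -2.62 and -1.68 at 1.0 mm. DR956480 rose by 8.45, with 5.78, 7.13 and 7.75 at 2.0 mm, against -2.87, -1.27 and -0.31 at 1.0 mm. These 2 differed in which stage was the more variable: AI665554 had an SD of 1.36 at 2.0 mm and 0.52 at 1.0 mm, whereas DR956480 had 0.60 at 2.0 mm and 0.92 at 1.0 mm. TC291473 rose by 8.01 and was the only one of the 5 with every 1.0 mm sample above its sample's median, at 0.25, 0.73 and 1.71, against 7.72, 8.99 and 9.88 at 2.0 mm.

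The next 7 transcripts rose by 5.79 to 6.35. TC297697 (6.35) read 0.55, 3.75 and 4.28 at 2.0 mm, against -4.94, -3.16 and -1.66 at 1.0 mm. TC305255 (6.31) read 5.69, 6.61 and 7.34 at 2.0 mm, against -1.19, 0.29 and 2.11 at 1.0 mm. Both kept the stages apart, by 2.21 and 3.58, but with 1.0 mm samples that spread by an SD of 1.05 and 1.26. TC307404 (5.94) read 3.69, 5.25 and 7.14 at 2.0 mm, against -1.29, -0.90 and -0.09 at 1.0 mm. TC297354 (5.94) read 4.67, 6.05 and 6.22 at 2.0 mm, against -1.19, -0.13 and 0.33 at 1.0 mm. At nearly equal rises, TC307404 spread more widely among the 2.0 mm samples (SD 1.23) than TC297354 (SD 0.60).

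TC315586 (5.91) read 3.79, 5.09 and 5.79 at 2.0 mm, against -3.71, -0.61 and 0.86 at 1.0 mm. Its 1.0 mm samples had the largest SD of the 12, 1.48, with Mu active replicate 1 the lowest. TC282440 (5.83) read 6.54, 7.45 and 8.54 at 2.0 mm, against 0.82, 1.75 and 2.15 at 1.0 mm. TC297291 (5.79) read 7.45, 8.51 and 9.25 at 2.0 mm, against 1.22, 2.47 and 3.89 at 1.0 mm. In all 12 transcripts the lowest of the 8 samples at 2.0 mm lay above the highest of the 8 at 1.0 mm, by at least 2.21.

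**Figure D2:**
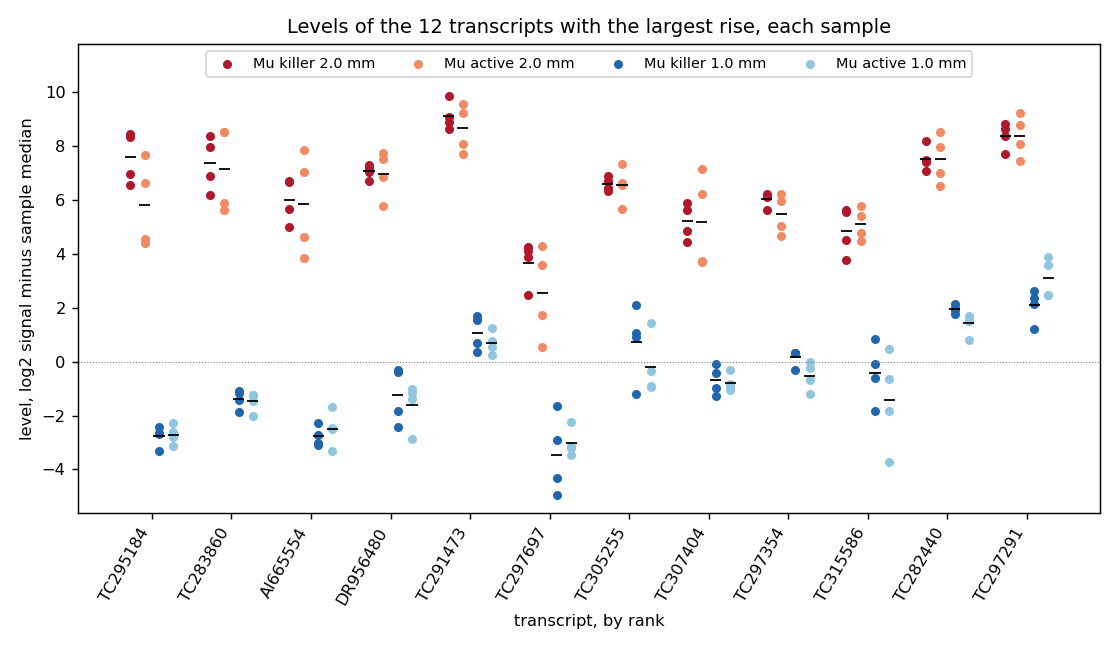
Level of the 12 transcripts with the largest rise in each of the 16 samples, in log2 signal minus the sample median; each point is a sample, each short line the mean of 4 samples. The 8 points at 2.0 mm lie above the 8 at 1.0 mm for every transcript, and the 2.0 mm points of TC295184, TC297697 and AI665554 spread most.

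At the edge of the list the stages drew together. TC301195 (the last but one, rise 2.35) read 5.85, 7.15 and 8.18 at 2.0 mm, against 3.86, 4.55 and 5.56 at 1.0 mm, with a gap of 0.29. TC306555 (rank 200, rise 2.34) read -4.87, -0.67 and 2.06 at 2.0 mm, against -5.79, -3.37 and -1.70 at 1.0 mm, and 2 of its 2.0 mm samples, the replicate 2 of both lines, lay below most of its 1.0 mm samples. Just outside were TC283017, which rose by 2.33 (mean 2.30 ± 1.05 at 2.0 mm, -0.03 ± 0.49 at 1.0 mm, SD, n = 8 each), and CO460301, which rose by 2.32 (-1.93 ± 1.03 at 2.0 mm, -4.25 ± 0.55 at 1.0 mm). Membership near this edge is a matter of 0.01 log2 units.

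Without overlap between the stages, meaning that all 8 samples at 2.0 mm lay above all 8 at 1.0 mm, were 141 of the 200 members, where 2.39% of all 28295 probes met this condition. The rule used this contrast, and nothing is read from the difference. With the spike-in scaling the number was 46. The gap exceeded 1 log2 unit in 81 members and 2 in 28. Of the 59 members whose stages overlapped, 31 had 7 of 8 samples at 2.0 mm above every 1.0 mm sample, 16 had 6 and 6 had 5, and the remaining 6 had fewer.

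The brightness of a probe depends on its sequence as well as on its transcript, so the place of a member among all probes describes its signal and not its abundance. The signal of the median member stood at the 80.6th percentile of the 28295 probes at 2.0 mm, against the 43.2nd at 1.0 mm. At 2.0 mm 67 members were above the 90th percentile, against 10 at 1.0 mm. Below the 50th percentile were 24 members at 2.0 mm and 111 at 1.0 mm, and 8 members went from below the 50th at 1.0 mm to above the 90th at 2.0 mm. The brightest member at 2.0 mm was TC311041, with 8.01, 9.27 and 9.56 at 2.0 mm, against 5.25, 6.46 and 7.06 at 1.0 mm, and the dimmest was TC315278, with -2.90, -1.92 and -0.83 at 2.0 mm, against -4.98, -4.34 and -3.69 at 1.0 mm. These members at opposite ends of the signal range rose by 2.88 and 2.46.

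Requiring a signal in all 16 samples kept out transcripts that were near background in the younger anthers. At 2.0 mm 1683 maize probes were well above background in all 8 samples but not in all 8 at 1.0 mm, and 106 of these differed by more than the lowest member. When only the 2.0 mm samples had to pass, 118 of the 200 members remained in the list. The list is thus of transcripts measured at both stages.

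The members varied more between samples than other probes did, chiefly in the older anthers. The SD over 8 samples had a median of 0.89 over the members at 2.0 mm, against 0.57 at 1.0 mm, where all 28295 probes had medians of 0.52 at 2.0 mm and 0.41 at 1.0 mm. In 150 of the 200 members the SD was larger at 2.0 mm. The share of all probes was not counted, and their median SD was also larger at 2.0 mm. The rule ranks by means and takes no account of this spread, and its part in the spread of the members was not tested.

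Much of the spread at 2.0 mm lay between arrays and was shared by both lines. The median level of the 200 members in Mu killer 2.0 mm was 2.84, 3.01, 3.54 and 3.66 in replicates 1 to 4. In Mu active 2.0 mm it was 2.30, 2.61, 3.97 and 3.48. Replicates 3 and 4 were the higher in both lines, and the 16 samples separated by stage, since the medians at 1.0 mm were -0.88, -0.67, 0.04 and -0.09 in Mu killer and -0.66, -0.45, -0.08 and -0.82 in Mu active.

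This division of the arrays was noticed in the data and is not one of the study's groups. The rule averaged the same 2.0 mm values, and its part in the shares below was not tested. Centring each sample on its median also keeps the difference over all probes small. At 2.0 mm 174 members (87.0%) had a higher mean on the arrays of replicates 3 and 4 than on those of replicates 1 and 2, against 50.2% of all probes, by a median of 0.98 log2 units against 0.00 for all probes. All 4 samples of replicates 3 and 4 lay above all 4 of replicates 1 and 2 in 68 members (34.0%), against 4.45% of all probes. AI665554 is an example, with 6.72 and 6.66 in Mu killer and 7.04 and 7.85 in Mu active on arrays 3 and 4, and 5.67 and 4.99 in Mu killer and 3.84 and 4.65 in Mu active on arrays 1 and 2. At 1.0 mm 129 members (64.5%) were higher on arrays 3 and 4, against 46.2% of all probes, by a median of 0.22. Mu active replicate 1 was the lowest of the 8 samples at 2.0 mm in 81 members, and Mu active replicate 3 the highest in 70. The cause of the division was not tested.

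**Figure D3:**
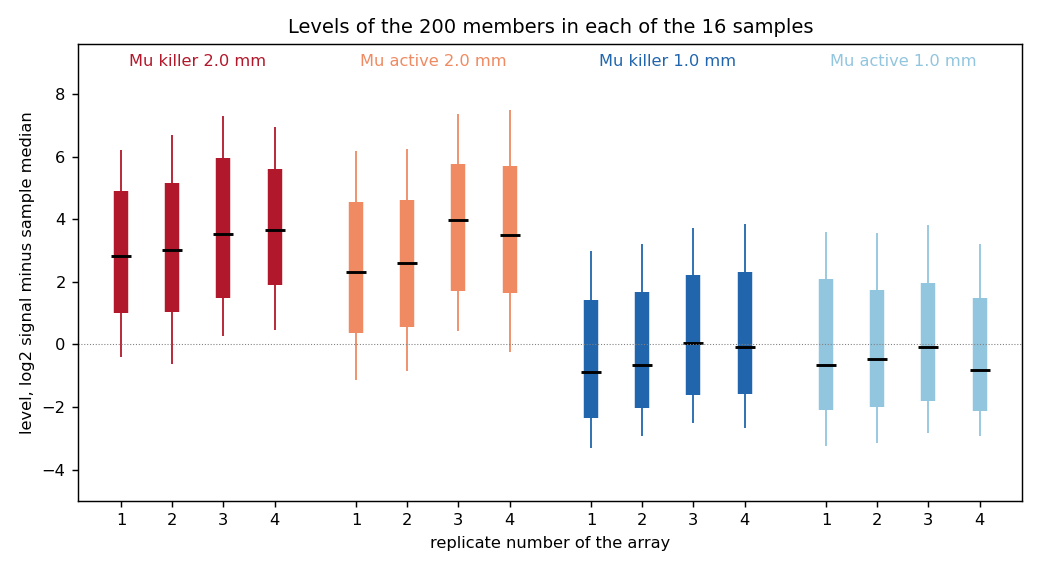
Levels of the 200 members in each of the 16 samples, in log2 signal minus the sample median; black marks are medians, thick bars the 25th to 75th percentiles and thin lines the 10th to 90th percentiles. All 8 medians at 2.0 mm (2.30 to 3.97) lie above all 8 at 1.0 mm (-0.88 to 0.04), and replicates 3 and 4 are the higher at 2.0 mm.

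In a few members single arrays or samples at 2.0 mm stood far from the rest, and the 5 named here were chosen after their values were seen. TC315465 (rank 68, rise 3.24) read 10.19 in Mu killer and 8.73 in Mu active of replicate 1 at 2.0 mm, against -2.67 to -1.32 in the 8 samples at 1.0 mm. Its other 6 samples at 2.0 mm read -2.18 to -0.81, much as the younger anthers did, and both high readings came from the 2 colours of a single array spot. Without that array its rise was 0.49. TC291557 (rank 118, rise 2.77) was high only on the array of replicate 3, at 5.41 for Mu killer and 5.01 for Mu active. Its rise was 1.55 without that array.

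TC287632 (rank 56, rise 3.46) was high in Mu killer replicates 3 and 4 at 2.0 mm, at 5.91 and 5.11, and between -1.21 and 1.80 in the other 6. TC298940 (rank 13, rise 5.58) was the highest-ranked member with overlapping stages: 7 samples at 2.0 mm read 2.53 to 6.20, and Mu killer replicate 3 read -1.55, against -3.69 to -0.65 at 1.0 mm. TC296100 (rank 47, rise 3.58) read -1.64 in that same sample and -0.24 in Mu active replicate 4, with 2.49 to 4.99 in the other 6. In these 3 members single samples at 2.0 mm thus stood in the 1.0 mm range. Leaving out each of the 8 arrays in turn, between 167 and 182 of the 200 members stayed in the list, and 132 stayed in it every time.

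TC300568 was the transcript read by more than 1 member probe. Its probe of rank 44 rose by 3.61, with -0.74, 1.42 and 4.56 at 2.0 mm, against -3.29, -1.60 and 0.52 at 1.0 mm. Its probe of rank 77 rose by 3.13, with 1.62, 3.24 and 5.62 at 2.0 mm, against -0.72, -0.07 and 1.33 at 1.0 mm. The probes agreed in their highest sample at 2.0 mm, Mu killer replicate 3, but the stages overlapped by the first probe and did not by the second.

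For 32 members the array holds another probe with the same identifier, 68 probes in all, and 21 of these rose by more than 1 log2 unit. The 68 were spread unevenly, so the 21 do not give a share of the 32 members. MAGI4_38589 (member probe 4.39) had the most other probes, and theirs differed by -1.16 to 0.92. Of the leading transcripts, TC283860 rose by 4.31 and AI665554 by 2.95 by their second probes, neither of which was well above background in all 1.0 mm samples. For some members the other probe went the opposite way: -1.42 for TC307525 (member probe 2.78), -1.01 for TC280700 (2.41) and -0.86 for TC311591 (2.73). These 3 and MAGI4_38589 were chosen after their values were seen. Whether all probes of an identifier read the same transcript was not tested, so the rises under these identifiers are uncertain.

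On the median scale the median rise of the members was nearly equal in the lines. Over the 200 members the median rise in Mu killer was 2.97 and the median rise in Mu active was 2.98, with medians over all probes of 0.01 and 0.05. With the spike-in scaling the medians parted, at 1.52 in Mu killer and 2.33 in Mu active, so the near equality holds for the median scale. On the median scale the rise ran from 1.45 to 10.4 in Mu killer and from 0.69 to 8.62 in Mu active, and was positive for each member in both. The list made from Mu killer samples alone held 172 of the 200 members, and that from Mu active samples alone 168. All 4 samples at 2.0 mm lay above all 4 at 1.0 mm for 169 members within Mu killer, where 11.7% of all probes met this condition, and for 172 within Mu active, where 7.14% did.

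The rises differed between the lines by less than 0.5 log2 units in 119 members and by more than 1 in 33. These shares were not counted over all probes. In the ratios within arrays described below, the lines' changes between the stages differed by a median absolute 0.35 over the members. Over all probes this was 0.14, so single members differed more than other probes did. The rises were larger in Mu killer for 105 members. Over the 200 members Pearson's r of the 2 rises was 0.82, a description across probes that share the arrays and were chosen for a high mean of both. Members with unequal rises stood at 4.27 in Mu killer and 0.69 in Mu active (TC306708), at 3.98 and 1.15 (TC315494), and at 1.45 and 3.26 (TC301722).

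**Figure D4:**
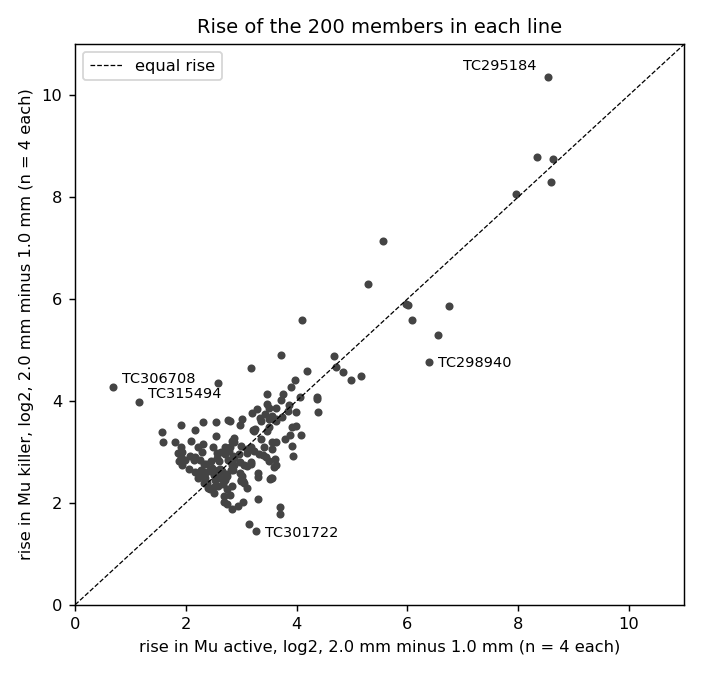
Rise of each of the 200 members in Mu killer (vertical axis) and in Mu active (horizontal axis), in log2 units, each from 4 samples at 2.0 mm and 4 at 1.0 mm; the dashed line marks equal rises. Most points lie near the line, with 119 members within 0.5 log2 units of it, and TC306708 and TC315494 lie farthest above it.

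The lines were then compared within each array, which the rule did not use. The test was limma's moderated test on the ratio of the lines in log2 units (Mu killer over Mu active), with 4 arrays per stage and p-values adjusted by Benjamini and Hochberg over the 28295 probes. A difference was called at a fold of at least 1.5 and an adjusted p under 0.05. No member was called at 2.0 mm (0.00353% of all probes were), at 1.0 mm (0.00353%), or for the difference between the lines in the change from 1.0 to 2.0 mm (0.00%). The lowest adjusted p of a member was 0.21 at 2.0 mm and 0.71 at 1.0 mm by limma. Leaving out the 2.0 mm array of replicate 3 changed this: 24 members (12%) and 3189 probes in all (11.3%) were then called at 2.0 mm. The absence of calls at 2.0 mm therefore rests on that array. The 24 members were all higher in Mu killer, and all probes split into 1648 higher and 1541 lower. Without replicate 3, the 2.0 mm arrays had Mu killer in Cy3 on replicates 1 and 2 and in Cy5 on replicate 4. The part of this uneven dye arrangement in the direction was not tested.

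By the unadjusted p under 0.05 with the same fold, 21 members (10.5%) differed at 2.0 mm, where 5.10% of all probes did, with 15 higher in Mu killer (3.42% of all probes) and 6 lower (1.68%). At 1.0 mm 11 members (5.5%) did, where 1.46% of all probes did, with 7 higher in Mu killer (0.866% of all probes) and 4 lower (0.594%). For the change between the stages 8 members (4%) passed, where 0.795% of all probes did, and all 8 rose more in Mu killer (0.368% of all probes did, and 0.428% rose less). These directions depended on the scaling and on single arrays. With median centring in place of the intensity-dependent loess fit, 10 members were higher and 18 lower in Mu killer at 2.0 mm, 2 higher and 8 lower at 1.0 mm, and 6 rose more and 7 less between the stages. Without the 1.0 mm array of replicate 1 the change had 2 members that rose more in Mu killer and 6 that rose less, without that of replicate 2 it had 4 and 4, and without the 1.0 mm array of replicate 4 there were 4 members higher and 10 lower at 1.0 mm. Without the fold, the shares of members and of all probes were 18% and 17.7% at 2.0 mm, 8% and 6.58% at 1.0 mm, and 6.5% and 2.68% for the change. At 2.0 mm the members thus differed from other probes in the size of the ratios and hardly in how often the p fell under 0.05.

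The median log2 ratio of the members was 0.09 at 2.0 mm and 0.06 at 1.0 mm, against -0.01 and 0.00 over all probes. Its sign depended on the scaling, since with median centring it was -0.17 at 2.0 mm and -0.06 at 1.0 mm, against -0.16 and -0.12 over all probes. It also differed between arrays, at 0.35, 0.33, -0.07 and -0.03 in the 2.0 mm arrays of replicates 1 to 4 and -0.14, -0.01, 0.22 and 0.19 in the 1.0 mm arrays. Mu killer carried Cy3 on the arrays of replicates 1 and 2 and Cy5 on the others, so at each stage the sign went with the dye arrangement, in opposite directions at the 2 stages.

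TC292835 had the largest difference at 2.0 mm. Its log2 ratios were 2.48, 2.94, 2.29 and 1.07 in the 2.0 mm arrays, a mean of 2.19 (SE 0.33, limma adjusted p = 0.21), and 0.85, 1.92, 2.15 and 1.81 in the 1.0 mm arrays, a mean of 1.68 (SE 0.33, adjusted p = 0.71). It was higher in Mu killer on 8 of 8 arrays. Without the 2.0 mm array of replicate 3 its difference at 2.0 mm was 2.11 with a limma adjusted p of 0.026, and its rises in the lines were alike, at 3.66 in Mu killer and 3.51 in Mu active.

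TC315401 was likewise higher in Mu killer on all 8 arrays, with 0.39, 1.29, 2.15 and 1.67 at 2.0 mm (mean 1.37, SE 0.42, limma adjusted p = 0.27) and 2.54, 3.34, 1.06 and 1.55 at 1.0 mm (mean 2.12, SE 0.42, adjusted p = 0.71). TC295184, the leading transcript, had ratios of 2.44, 2.02, 1.84 and 0.56 at 2.0 mm (mean 1.72, SE 0.25, limma adjusted p = 0.21), whereas its 4 ratios at 1.0 mm lay between -0.12 and 0.10. TC313067 was lower in Mu killer on 4 of 4 arrays at 2.0 mm, with -1.08, -0.19, -1.79 and -1.22 (mean -1.07, SE 0.33, limma adjusted p = 0.27), and on 3 of 4 at 1.0 mm. None of these differences passed the adjusted threshold with all arrays in the fit.

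Other large mean ratios came from 1 or 2 arrays. TC306708 read -3.56 and -2.46 in Mu killer 1.0 mm replicates 1 and 2 and 4.46 and 4.95 in replicates 3 and 4, against 3.96, 4.60, 4.63 and 5.37 in Mu active 1.0 mm. At 2.0 mm it read 4.16 or higher in all 8 samples. Its line ratio at 1.0 mm, -2.96 (SE 0.68, limma adjusted p = 0.71), and its difference in the change between the stages, 2.73 (SE 0.96, adjusted p = 1.00), both rest on those 2 samples, as does its place in the list: without the 1.0 mm array of replicate 1 it rose by 1.62.

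TC283808 had ratios of -1.06, -4.98, 0.74 and -0.77 at 1.0 mm (mean -1.52, SE 0.76, limma adjusted p = 0.71), and -0.37 as the mean without the array of replicate 2. TC301722 had -0.64, -0.86, -3.34 and -0.60 at 2.0 mm (mean -1.36, SE 0.51, limma adjusted p = 0.27), and -0.66 without the array of replicate 3. TC315494 had 3.57, 0.15, 0.48 and 4.33 at 2.0 mm (mean 2.13, SE 1.06, limma adjusted p = 0.32) and from -2.33 to 3.37 at 1.0 mm. TC293706, with the 2.0 mm ratios -0.66, 1.16, -2.63 and 1.34, differed by -1.37 in the change between the stages (SE 1.00, adjusted p = 1.00), and by -0.40 without the 2.0 mm array of replicate 3. None of these differences passed the adjusted threshold, and the ratios of single arrays differed by several log2 units within a stage.

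**Figure D5:**
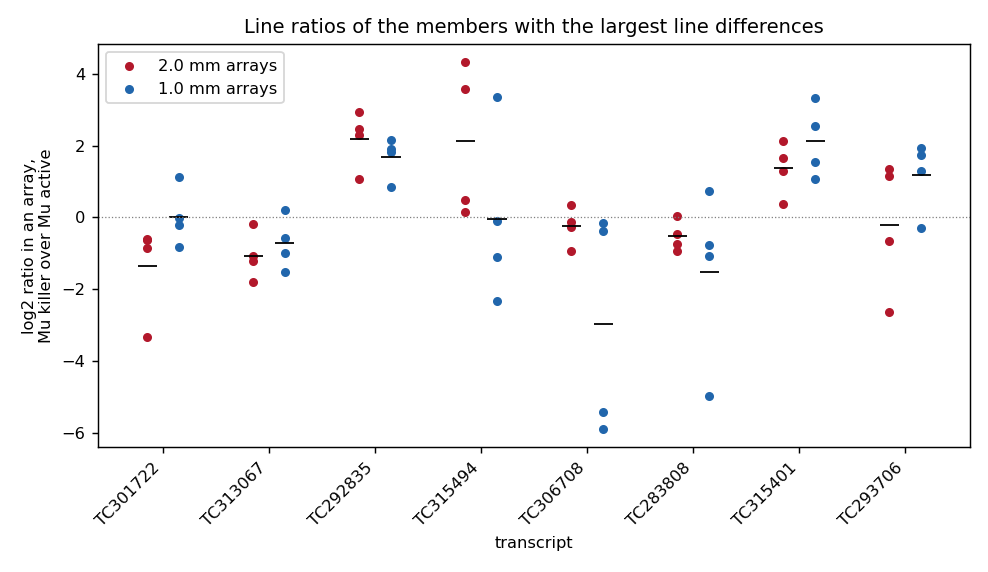
Ratio of the lines in each array, Mu killer over Mu active in log2 units, for the members with the largest line differences; each point is 1 array, red for 2.0 mm and blue for 1.0 mm, and short lines are means of 4 arrays. TC292835 and TC315401 lie above 0 on all 8 arrays, while the means of TC306708 and TC283808 at 1.0 mm are set by 2 arrays and 1 array.

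The lines can also be set apart on the level scale, where each sample has its own value. All 4 Mu killer samples lay above all 4 Mu active samples at 2.0 mm for 5 members, where 3.36% of all probes met this condition, and below them for 1 member, TC313067, where 2.89% did. At 1.0 mm they lay above for 9 members, where 1.90% of all probes met it, and below for 0, where 1.33% did. TC299206 and DR955130 met the condition at both stages. TC299206 read 0.25, 1.08, 0.62 and 0.24 in Mu killer 2.0 mm against -0.95, -0.70, -0.39 and -1.27 in Mu active 2.0 mm. It read -2.03, -1.43, -1.92 and -1.58 in Mu killer 1.0 mm against -2.82, -3.66, -3.30 and -3.29 in Mu active 1.0 mm, so that it was higher in Mu killer before and after a rise of like size, 2.29 in Mu killer and 2.44 in Mu active.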

How the data were processed

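RNA of whole anthers was hybridized in pairs to 8 two-colour Agilent maize arrays, giving 16 samples. The deposited scanner files hold intensity values from Agilent Feature Extraction 9.5.3.1, which the authors' scanner software had background-subtracted, spatially detrended and dye-normalized (the processed signal). The deposited files further include the authors' own normalized intensity for each channel. Its scaling steps are not given in the sources used here, and it served only as an alternative, matched by feature number. Each array's file was present for both of its samples and was read once. Well above background means 2.6 SD above it, by the scanner's flag. For arrays the number of samples limits the precision.

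Levels were log2 processed signals minus the sample median over the 28295 probes. For the lines, mean signals were background-corrected (normexp, offset 50) and loess-normalized within each array, without weight on control spots, with outlier spots left out. The log2 ratios were fitted in limma 3.58.1 (R 4.3.3) with a coefficient per stage and a dye term. The fit was tested on simulated data: of probes changed 2-fold and 4-fold at 2.0 mm among 28295, 55% and 79% were called by adjusted p. The simulated noise was independent between probes, and the changed probes were drawn at random. Noise shared by the probes of an array was left out, so these shares need not hold for the members. Summaries used Python 3.11.15.

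The members and all lists were chosen with earlier results of these data known. Named transcripts are the 12 of highest rank, the last 2 and the 2 just outside, the brightest and dimmest at 2.0 mm, the 2 with the largest line difference in each direction per stage and in the change between stages, and the transcript with more than 1 member probe; others are named as chosen after their values were seen. Replicates are separate samples by their labels, described as biological replicates, and p-values measure the spread between them. Alternatives were other background corrections, scalings, filters and fits, and leaving out each array.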

Additional observations from a re-analysis of the deposited data

Results flagged for a closer look

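Within-group gaps were examined in 70 groups of values (levels of the named transcripts and the members' median over the 8 samples of a stage, and line ratios over 4 arrays), and 4 held a sample far from the rest. The rule would flag about 1 in 20 groups of independent values. These groups share samples and arrays, and some transcripts were named for their large line differences, so no comparison with chance is drawn. TC311041, the brightest member, had its lowest level at 2.0 mm in Mu killer replicate 1, at 8.01. TC282440 was lowest at 1.0 mm in Mu active replicate 1, at 0.82. TC283808 read 0.46 at 1.0 mm in Mu killer replicate 2. The log2 line ratio of TC301722 was -3.34 in the 2.0 mm array of replicate 3. The causes were not tested.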

How the results depend on the processing

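Of the 200 members, 118 stayed in the list when only the 2.0 mm samples had to be above background, and 140 to 200 under the other alternatives: 152 with normexp or with no background subtraction, 140 in the authors' normalized intensities, 195 with quantile normalization. The number without overlap (141) was 108 to 156 under the other alternatives and 46 with spike-in scaling, which was chosen after the data were seen. The median rise in Mu killer (2.97) was 2.16 with normexp, 2.15 in the authors' intensities, 2.20 with no background subtraction and 1.52 with spike-in scaling; in Mu active (2.98) it was 2.20 in the authors' intensities and 2.33 with spike-in scaling. With one array left out the members kept were 167 to 182, those without overlap 144 to 156, and the medians 2.80 to 3.15 in Mu killer and 2.75 to 3.18 in Mu active. No rise of a leading transcript turned negative.

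Over all probes, 1 was called at 2.0 mm and 1 at 1.0 mm. At 2.0 mm it was 2 with processed signals, 2 with adjustment over all maize probes, 0 with each stage fitted alone and 0 with a replicate block; at 1.0 mm it was 2 with adjustment over all maize probes and 0 with each stage fitted alone. Leaving out 1 array gave 1 to 3189 at 2.0 mm, 1 to 4 at 1.0 mm and 0 for the change between the stages; for members alone it gave 0 to 24 at 2.0 mm, 0 at 1.0 mm and 0 for the change. Members passing by unadjusted p (21, 11 and 8) were 21 at 1.0 mm with processed signals and 13 for the change with median centring; with 1 array left out they were 18 to 35 at 2.0 mm, 10 to 14 at 1.0 mm and 5 to 21 for the change. The causes were not tested. No direction of a named line difference reversed. The change between the stages has no value when each stage is fitted alone. The deviations of same-numbered arrays of the stages had r of 0.02, -0.29, -0.21 and 0.34. These values run both ways and cannot decide whether the numbers pair the arrays. With the replicate block 17, 9 and 9 members passed by unadjusted p.

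Limits: 4 arrays per stage, stage confounded with slide, lines resting on the reading of the labels, and no gene names. Folds of dim probes depend on the background correction: the rise of the leading transcript, 9.45, was 7.29 with normexp and 6.85 in the authors' intensities.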
